A study of Mus musculus with 2 samples.

Results

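Wnt ligands, their Frizzled and LRP receptors, and the secreted proteins and LGR receptors that tune them are 46 genes, taken by symbol from the 23228 genes named in 2 libraries of poly(A) RNA. They comprise 19 Wnt genes, 10 Frizzled genes, Lrp5 and Lrp6, 4 R-spondins, Lgr4 to Lgr6, 4 secreted Frizzled-related proteins (SFRPs) and 4 Dickkopf (DKK) genes. The libraries came from spermatogonial progenitor cells of C57BL/6 mouse testes at 8 days after birth, 1 wild-type and 1 Dnmt3l knockout, and the labels give neither the knockout allele nor the number of animals. DNMT3L has no methyltransferase activity of its own and assists the enzymes that set new DNA methylation, and the series title concerns its role in quiescence of these cells. Values are FPKM, which scale fragments to the length of the transcript and the size of the library, summed over the RefSeq transcripts and assembled transcript models of a gene. Each genotype has 1 library, so no difference could be checked against replicates or tested. Bounds in brackets belong to the estimate made from that library and leave out any variation among animals. Where a pair of values is given, the wild-type value comes first.

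Wnt proteins are lipid-modified secreted signals that bind a Frizzled receptor together with LRP5 or LRP6. Binding stops the destruction complex of AXIN, APC, GSK3 and casein kinase from marking beta-catenin for degradation, and beta-catenin then acts with TCF and LEF factors in the nucleus. R-spondins bind LGR receptors and keep the ubiquitin ligases ZNRF3 and RNF43 from removing Frizzled receptors, SFRPs bind Wnts outside the cell, and most DKK proteins block LRP5 and LRP6. In the testis, Sertoli cells make WNT6 and WNT5A, and beta-catenin signalling is active in undifferentiated spermatogonia.

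Of the 46 genes, 27 reached 1 FPKM in one library or both. They were compared by the log2 ratio of knockout to wild-type values after adding 1 FPKM to each, a scale that understates the differences of low genes. Wnt5b was at least 2-fold higher in the knockout library and Fzd3 at least 2-fold lower, and the other 25 lay within 2-fold. Among all 13795 genes compared, 7.68% were at least 2-fold higher and 3.5% at least 2-fold lower, 11.2% in all. The members, at 2 of 27 (7.41%), had no larger share, and 2 calls are too few to read as a difference from it. The direction of the smaller differences was uneven. Lower values in the knockout library were listed for 16 of the 27, against 34% of all genes (66% were higher), and their median ratio was -0.27, against 0.22 over all genes compared. The median gene, taken over genes that reached 1 FPKM in both, had a ratio of 0.21, and relative to it 8 members lay above and 19 below. The bounds of the libraries did not overlap for 15 members, 5 higher and 10 lower in the knockout library, whereas over all genes they did not overlap for 51.6%, 35.5% in the higher and 16.1% in the lower direction. Other ways of counting gave similar member counts: centred on the median gene 1 member was 2-fold higher and 2 were lower (4.89% and 5.42% of all genes), with RefSeq transcripts only 1 and 2 (11.7% and 11.3% of 12285 genes), and with the median of genes of like length removed 1 and 2 (4.78% and 4.08%). Asking for bounds apart as well as 2-fold left 1 and 1 (7.47% and 3.44%, 10.9% in all). The exon level adds the FPKM of all models lying over a base and averages them along the annotated exons, and by it 1 member was higher and 0 were lower (5.19% and 3.08% of 13847 genes).

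**Figure D1:**
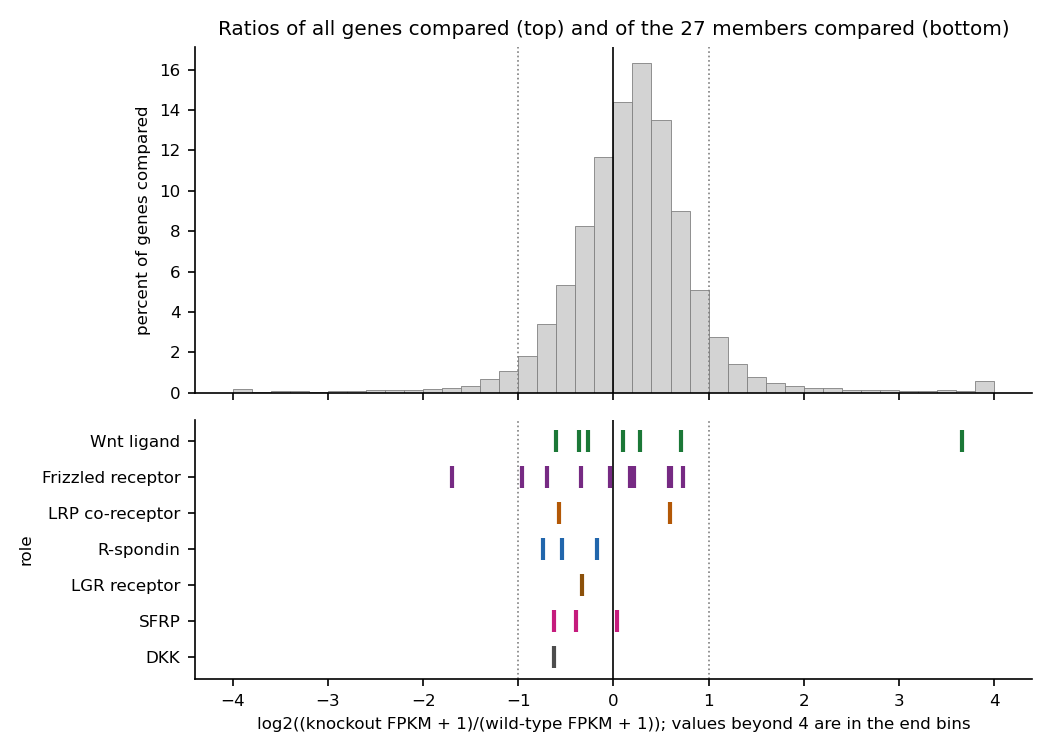
The top panel gives the percent of the 13795 genes compared in each bin of the log2 ratio of knockout to wild-type (FPKM + 1), and the bottom panel gives 1 tick for each of the 27 members compared, by role; dotted lines mark 2-fold. Wnt5b, at 3.67, lies far to the right, Fzd3, at -1.69, to the left, and 7 of the 8 ticks for R-spondins, LGR, SFRP and DKK genes lie below 0.

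The knockout library was at 0 FPKM for Dnmt3l, with an upper bound of 0, and the wild-type library at 1.67 FPKM (0.79 to 2.68). Germ cell markers were high in both libraries, with summed levels over 10 genes of 853 FPKM for the wild type and 801 FPKM for the knockout, 6 of them higher and 4 lower in the knockout library. Those of undifferentiated spermatogonia summed to 312 and 341 FPKM, with 7 higher and 3 lower. Of the latter list Id4 was 2-fold higher, Neurog3 and Itga6 were 2-fold lower, and Zbtb16 was at 55.4 and 27.9 FPKM. Somatic markers were present in both libraries as well, with higher sums in the knockout library. All 12 Sertoli cell genes compared had a ratio above 0, 5 of them 2-fold or more, and their summed level was 567 and 1267 FPKM. Leydig cell markers summed to 75.1 and 163 FPKM (5 of 6 higher, with Star listed at 0 in both), peritubular and stromal markers to 789 and 1059 FPKM (9 of 11 higher), endothelial markers to 60.7 and 118 FPKM (6 of 8), and macrophage markers to 385 and 688 FPKM (6 of 9, with Cd68 listed at 0 in the knockout library). Over all genes compared 66% were higher, 7.68% at least 2-fold, and the median ratio was 0.22. Median ratios were 0.89 for Sertoli, 0.93 for Leydig, 0.30 for peritubular and stromal, 0.64 for endothelial and 0.68 for macrophage markers. Those of germ cells and undifferentiated spermatogonia were 0.24 and 0.20. In bulk RNA, fewer cells of a type and less RNA per cell cannot be told apart, and the part of these differences in the results below was not tested. The ratio also went down with transcript length across genes (Spearman rho = -0.40), with a median of -0.21 over the 1376 genes whose longest transcript had 6000 nt or more.

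The ligand genes were led in both libraries by Wnt6, which was higher in the knockout library. Wnt6 (chromosome 1, 74771892 to 74785319, plus strand, mm10) stood at 16.8 FPKM (14.5 to 19.0) for the wild type and 28.2 FPKM (26.1 to 30.3) for the knockout. The bounds were apart, the ratio was 0.72 on the log2 scale, and 12% of the wild-type level came from an assembled model, against none in the knockout library. The gene made up 48.3% of the summed Wnt level of 34.7 FPKM with the wild type and 51.2% of 55.1 FPKM with the knockout. Its ratio was 0.75 at the exon level and 0.51 relative to the median gene. With the median of genes of like length removed it was smaller, 0.38. Sertoli cells are known to make WNT6 and WNT5A. The summed level of their markers was higher in the knockout library (567 and 1267 FPKM). Wnt5a was lower there, at 6.56 and 4.90 FPKM with overlapping bounds. The part of Sertoli cells in either ligand difference was not tested. The Wnt10a gene, whose start lies 6.70 kb beyond the end of Wnt6 on the same strand, did not share its level, with 0.104 and 0.252 FPKM.

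Wnt5b, a ligand that acts mostly through beta-catenin-independent pathways, carried the largest listed difference of the set, and that difference rested in part on how transcripts were joined. Its summed value was 0 in the wild-type library (upper bound 0.052) and 11.7 FPKM (9.53 to 13.8) in the knockout library. In the knockout library the RefSeq transcript, of 5 exons (chromosome 6, 119432531 to 119544347, minus strand), held 7.17 FPKM and an assembled model of its 3′ end held 4.52 FPKM. In the wild-type library the same RefSeq transcript was listed at 0, yet exons 2 to 5 of Wnt5b were covered at 4.0 FPKM (3.49 to 4.51) by an assembled model. That model has 22 exons, starts at the upstream gene Erc1, a scaffold protein gene, and shares 3642 of its 5832 nt with Erc1, to which it was counted. The wild-type library therefore held RNA over Wnt5b exons, and the listed 0 is not absence.

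At the exon level Wnt5b stood at 3.38 for the wild type and 10.2 for the knockout, 3.01-fold apart and a log2 ratio of 1.35. With the joined model counted for Wnt5b, a setting chosen after seeing the data, the values were 4.0 and 11.7 FPKM, with bounds apart, and the ratio was 1.34. For the wild type both of these rest on the 4.0 FPKM estimated over the whole joined model, so they are not separate estimates. The gene stayed above 2-fold under each way of counting, and in both of these by a much smaller amount than the listed ratio of 3.67. Exon 1 was at 0 and 7.17, exons 2 and 3 at 4.0 and 7.17, exon 4 at 4.0 and 11.7, and exon 5 at 4.0 and 11.5, all as summed FPKM of the covering models. Exon 1 was the single exon at 0 in the wild-type library, and the widest gap in FPKM was at exon 4. Erc1 itself had 17.8 FPKM in the wild-type library, or 13.8 FPKM without the joined model, and 9.50 FPKM in the knockout library.

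**Figure D2:**
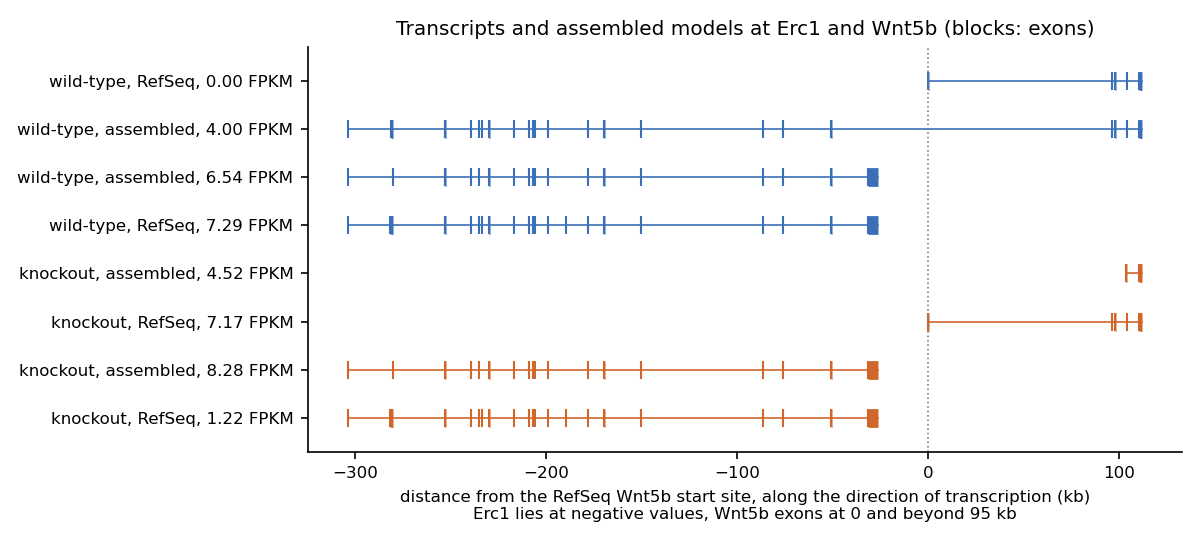
Each line is 1 transcript or assembled model at Erc1 and Wnt5b, with blocks for exons, drawn against the distance in kb from the RefSeq start of Wnt5b along the direction of transcription. In the wild-type library (blue) a model of 4.0 FPKM runs from Erc1 into the last 4 exons of Wnt5b and the RefSeq Wnt5b transcript is at 0, whereas in the knockout library (orange) the RefSeq Wnt5b transcript is at 7.17 FPKM.

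The start sites of Wnt5b are shown because the deposited models differ between the libraries in whether any begins at them. RefSeq (GRCm38.p6) lists 3, and the 250 bases before each are printed 5′ to 3′ on the minus strand, with CpG dinucleotides, the sites of DNA methylation, in capitals. The first, at chr6:119544348-119544597, is the start of the transcript listed at 7.17 FPKM in the knockout library and holds 35 CpG. The others, at chr6:119467212-119467461 and chr6:119449387-119449636, hold 4 and 7 CpG, and no model above 0 in either library began at them.
Wnt5b first start: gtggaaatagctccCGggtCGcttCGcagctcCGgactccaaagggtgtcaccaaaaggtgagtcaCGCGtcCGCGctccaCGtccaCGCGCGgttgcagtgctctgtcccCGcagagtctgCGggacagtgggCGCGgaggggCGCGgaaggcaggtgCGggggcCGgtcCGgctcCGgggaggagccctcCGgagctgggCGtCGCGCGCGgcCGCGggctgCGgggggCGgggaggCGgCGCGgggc
Wnt5b second start: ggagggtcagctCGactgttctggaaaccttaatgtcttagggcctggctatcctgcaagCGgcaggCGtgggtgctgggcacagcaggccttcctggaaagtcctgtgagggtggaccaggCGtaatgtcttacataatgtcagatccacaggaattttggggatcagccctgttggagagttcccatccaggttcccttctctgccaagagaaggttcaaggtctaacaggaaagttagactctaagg
Wnt5b last start: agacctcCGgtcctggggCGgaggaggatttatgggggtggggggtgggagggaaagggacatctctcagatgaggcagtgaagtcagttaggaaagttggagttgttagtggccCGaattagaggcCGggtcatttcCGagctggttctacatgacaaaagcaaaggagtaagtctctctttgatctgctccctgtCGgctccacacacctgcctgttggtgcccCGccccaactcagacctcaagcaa

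Dense CpG upstream of the start was common in the set. The promoter table held 32 start sites for 29 of the 46 genes, and 22 of them (68.8%) had 15 or more CpG in the 250 bases before the start, against 27.3% of 32851 start sites over all genes. The median was 22 CpG for the members and 6 over all start sites. It was 24.5 for the 18 start sites of members that reached 1 FPKM and 16 for the 14 of members that did not. Methylation itself was not measured. The windows of Wnt6 (chr1:74771642-74771891, plus strand, 28 CpG) and Fzd10 (chr5:128600856-128601105, plus strand, 37 CpG) are printed as those of the highest ligand, which was higher in the knockout library, and of the Frizzled gene with the lowest ratio among those with no assembled model.
Wnt6: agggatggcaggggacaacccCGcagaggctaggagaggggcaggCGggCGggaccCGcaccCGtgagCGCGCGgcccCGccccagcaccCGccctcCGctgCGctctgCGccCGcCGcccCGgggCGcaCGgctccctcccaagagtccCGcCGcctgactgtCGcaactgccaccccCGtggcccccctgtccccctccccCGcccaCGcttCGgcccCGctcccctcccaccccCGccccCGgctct
Fzd10: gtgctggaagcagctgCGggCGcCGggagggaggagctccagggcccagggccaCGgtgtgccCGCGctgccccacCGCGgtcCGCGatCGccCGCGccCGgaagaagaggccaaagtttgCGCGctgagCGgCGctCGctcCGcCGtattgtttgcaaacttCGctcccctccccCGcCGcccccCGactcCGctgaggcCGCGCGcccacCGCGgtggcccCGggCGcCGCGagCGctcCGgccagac

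Both windows are CpG-dense, and the genes differed in opposite directions. The relation of CpG count to ratio was not tested. The core of the TCF and LEF binding motif, CTTTGA on either strand, occurred in 4 of the 32 member windows, those of Dkk1, Fzd1, Wnt11 and the last start of Wnt5b, and in 13.8% of all windows. A match is a run of letters and not a site.

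The other ligands were lower in level. Wnt5a, a ligand of beta-catenin-independent signalling, was at 6.56 FPKM (5.15 to 7.99) for the wild type and 4.90 FPKM (3.68 to 6.13) for the knockout, with overlapping bounds. Its level over the 1000 nt at the 3′ end was nearly equal, 4.99 and 4.90, while at the 5′ end it was 4.37 and 1.69. The RefSeq transcript with the upstream start was listed at 0 in both libraries, and the one with the downstream start at 3.41 and 1.61 FPKM. The rest was assembled models, and some of these began just before the upstream start, so that listed 0 is not absence. Models beginning there held 1.56 and 1.58 FPKM in the wild-type library and 0.866 FPKM in the knockout library.

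Wnt3, which signals through beta-catenin, was at 2.20 FPKM (1.54 to 2.87) and 1.11 FPKM (0.828 to 1.39), with bounds apart. All of that difference lay in an assembled model of 1.19 FPKM in the wild-type library, since the RefSeq transcript was at 1.01 and 1.11 FPKM. Wnt2b was at 3.36 FPKM (2.71 to 4.02) and 2.62 FPKM (2.35 to 2.92), and in the knockout library the whole of it was an assembled model of 9058 nt that extends the RefSeq 3′ end. Wnt9a (1.98 and 2.62 FPKM) and Wnt4, a gene of ovarian development (1.02 and 1.16 FPKM), had overlapping bounds.

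In the wild-type library the order was Wnt6, Wnt5a, Wnt2b, Wnt3, Wnt9a and Wnt4, in which Wnt2b and Wnt3, and Wnt3 and Wnt9a, had overlapping bounds. In the knockout library it was Wnt6, Wnt5b, Wnt5a, Wnt9a, Wnt2b, Wnt4 and Wnt3, in which Wnt9a and Wnt2b, and Wnt4 and Wnt3, overlapped. The remaining 12 Wnt genes stayed below 1 FPKM in both libraries. Of these, Wnt1 and Wnt8a were listed at 0 in both, and the highest was Wnt2, at 0.701 and 0.897 FPKM. Wnt7b was at 0.772 FPKM (0.530 to 1.08) and 0.298 FPKM (0.140 to 0.507), the single low ligand whose bounds were apart. Of the neighbouring ligand pairs, Wnt3a and Wnt9a, Wnt9b and Wnt3, and Wnt10b and Wnt1, lying 11.7 to 24.4 kb apart in opposite orientation, none had both genes at 1 FPKM.

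**Figure D3:**
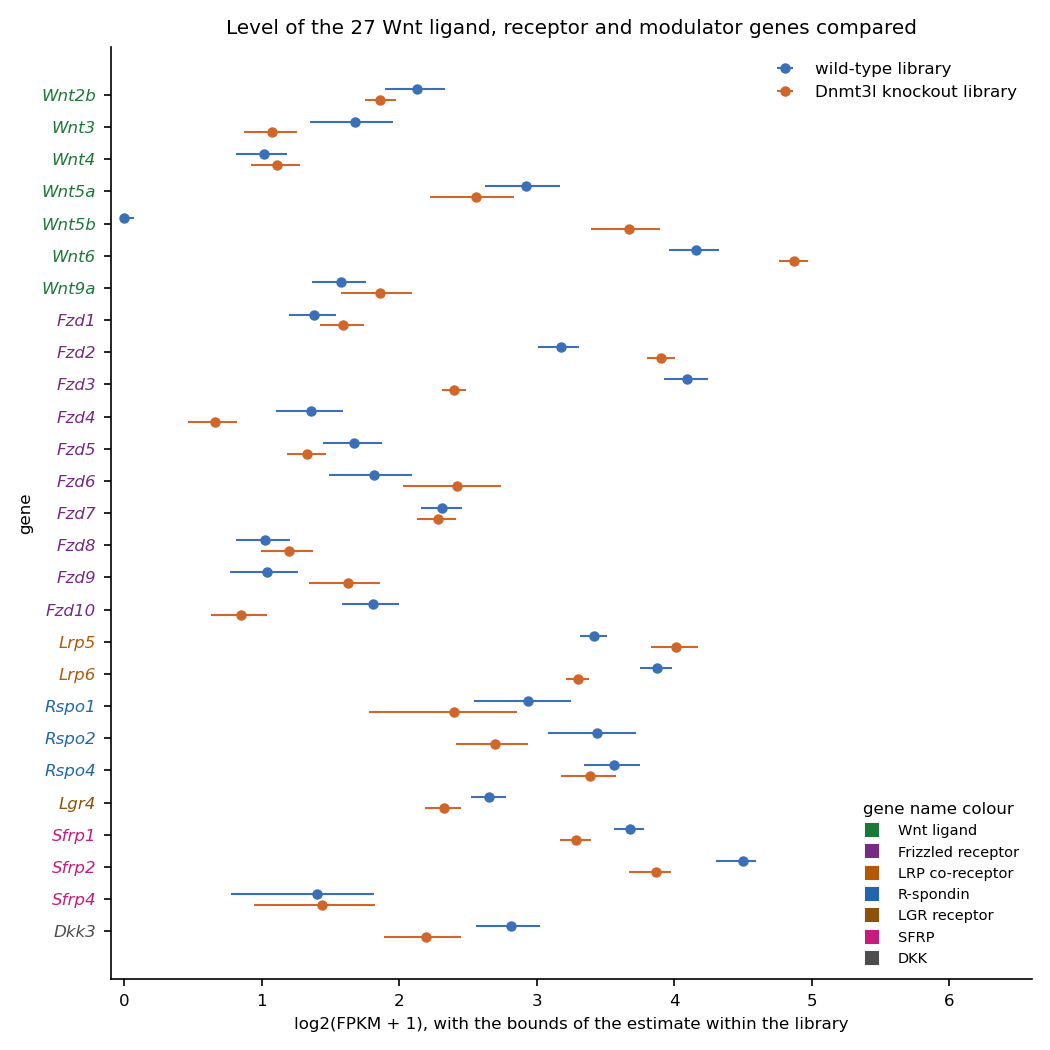
Points give log2(FPKM + 1) of each of the 27 members compared in the wild-type (blue) and knockout (orange) library, and lines give the bounds of the estimate within the library. Bounds are apart for 15 genes, among them Wnt6 and Fzd2, higher in the knockout library, and Fzd3, Fzd10, Sfrp1, Sfrp2 and Dkk3, lower.

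All 10 Frizzled genes reached 1 FPKM in at least 1 library. At the exon level and with RefSeq transcripts only, Fzd2 led in both libraries. As summed values the leading receptor differed between the libraries, and this rested on an assembled model of Fzd3. In the wild-type library Fzd3 was the highest, at 16.1 FPKM (14.2 to 18.0), and Fzd2 next, at 8.03 FPKM (7.03 to 8.90). In the knockout library Fzd2 was the highest, at 13.9 FPKM (12.9 to 15), and Fzd3 was at 4.27 FPKM (3.95 to 4.60). Fzd2, a receptor for WNT5A among other ligands (chromosome 11, 102604431 to 102608058, plus strand), was counted from 1 RefSeq transcript with no assembled model in either library, so its ratio of 0.73 was the same in all 3 ways of counting. Its share of the summed Frizzled level was 19.8% for the wild type and 40.2% for the knockout, or 25.4% and 41.6% at the exon level.

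Fzd3, a receptor of planar cell polarity and axon guidance (chromosome 14, 65192441 to 65262463, minus strand), had the lowest ratio of the set, -1.69. Of its wild-type level, 63.7% was an assembled model of 1893 nt at the 5′ part of the gene, whose longest transcript has 12742 nt, and the knockout library had no such model. The RefSeq transcript alone was at 5.84 FPKM (5.45 to 6.25) and 4.27 FPKM, a ratio of -0.38. At the exon level the values were 7.34 and 4.27 and the ratio -0.66, at the 5′ end 16.0 and 4.27, and at the 3′ end 5.84 and 4.27. The direction was the same under each of these, and the 2-fold call was lost at the exon level and with RefSeq transcripts only. With the median of genes of like length removed, the ratio of this long gene was -1.38. At the exon level Fzd2 also led in the wild-type library, with 25.4% of the summed level against 23.2% for Fzd3.

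Fzd10 (chromosome 5, 128601106 to 128604093, plus strand) was at 2.50 FPKM (2.00 to 2.99) for the wild type and 0.798 FPKM (0.544 to 1.05) for the knockout. This is a 3.14-fold difference in FPKM, with bounds apart and no assembled model, and a ratio of -0.96 on the log2(FPKM + 1) scale, just within 2-fold. Relative to the median gene its ratio was -1.17. Fzd4, which also serves as the norrin receptor, was at 1.56 FPKM (1.15 to 2.00) and 0.575 FPKM (0.380 to 0.760). In the wild-type library both of its models with a value extended beyond the RefSeq 3′ end and the RefSeq transcript was listed at 0, so RefSeq transcripts alone, below 1 FPKM, gave the opposite direction, a ratio of 0.66.

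Fzd9 was higher in the knockout library, at 1.05 FPKM (0.701 to 1.40) and 2.09 FPKM (1.54 to 2.63), from 1 transcript without assembled models. Fzd6, of planar cell polarity, was at 2.53 FPKM (1.80 to 3.25) and 4.36 FPKM (3.07 to 5.67), with overlapping bounds. Its RefSeq transcript of 4081 nt was at 1.29 and 2.06 FPKM and the one of 4085 nt at 1.24 and 0 FPKM. The 5′ end of Fzd6 was at 2.45 and 1.94, and the 3′ end, where the knockout library had assembled models, at 2.53 and 4.36. Fzd5 was at 2.19 and 1.51 FPKM, and its main RefSeq transcript differed: the one of 6807 nt was at 1.62 and 0 FPKM, and the one of 6914 nt at 0.57 and 1.51 FPKM. Those transcripts share their start and end. Fzd7 (3.97 and 3.85 FPKM), Fzd1 (1.60 and 2.02 FPKM) and Fzd8 (1.03 and 1.29 FPKM) had overlapping bounds. Below the leading 3 genes of the wild-type library, or 4 of the knockout library, the bounds of each Frizzled gene overlapped those of the next.

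**Figure D4:**
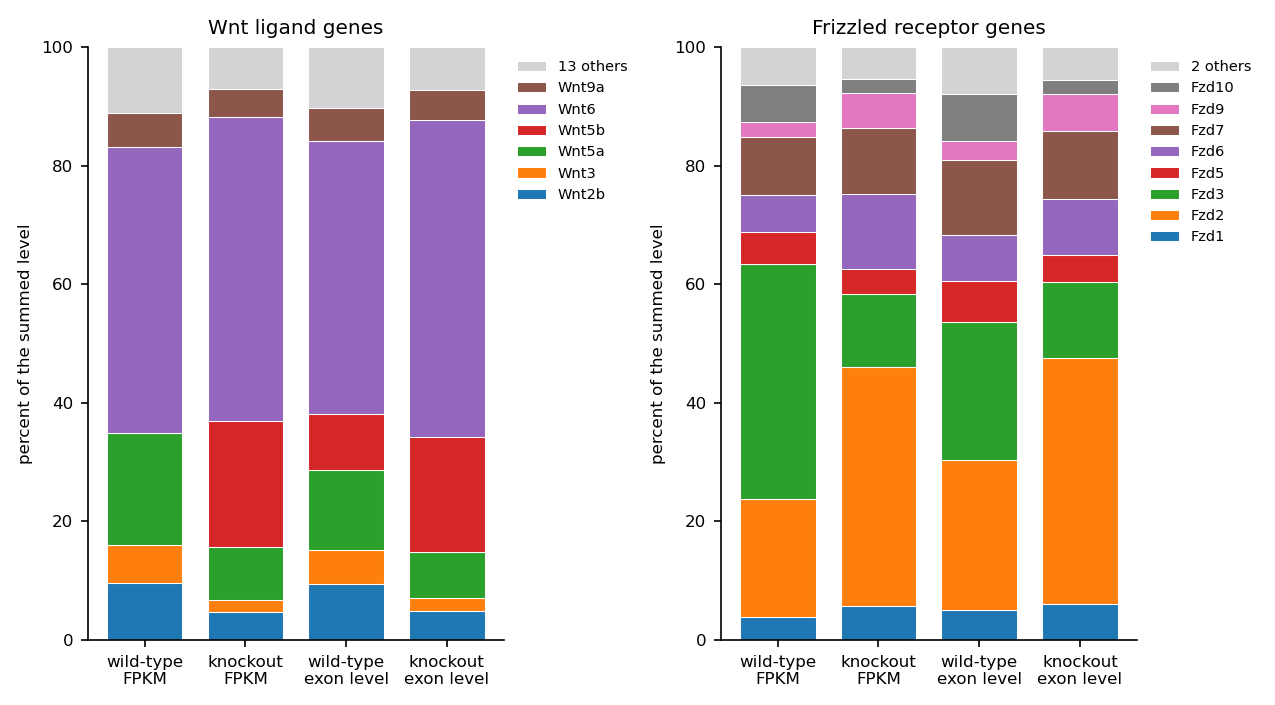
Bars give the percent that each gene contributes to the summed level of the Wnt genes (left) and Frizzled genes (right) in each library, from summed FPKM and from the exon level; genes under 5% in all 4 bars are pooled as others. Wnt6 is the largest ligand share in all 4 bars, and Fzd2 makes up 40.2% of the Frizzled level in the knockout library against 19.8% in the wild-type library.

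The co-receptor genes differed in opposite directions as summed values, and these directions rested on assembled models. Lrp5 (chromosome 19, 3584825 to 3686564) was at 9.67 FPKM (8.93 to 10.4) and 15.2 FPKM (13.2 to 17). Its RefSeq transcript was at 9.67 and 8.30 FPKM, the rest of the knockout value being a model of 11 exons at the 3′ end, and its exon level was 9.67 and 10.9. Lrp6 (chromosome 6, 134446478 to 134566913) was at 13.6 FPKM (12.5 to 14.8) and 8.85 FPKM (8.28 to 9.41). A near full-length assembled model of 5.14 FPKM was present in the wild-type library only, the RefSeq transcript was at 8.48 and 8.85 FPKM, and the exon level was 13.5 and 8.85. The summed co-receptor level was 23.3 and 24.0 FPKM.

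Most of the R-spondin, LGR, SFRP and DKK genes that reached 1 FPKM were lower in the knockout library. Lgr4 was the only LGR gene among them and Dkk3 the only DKK gene. Of the 8 such genes compared, 7 had a ratio below 0, as summed values, at the exon level and with RefSeq transcripts only, 5 of them with bounds apart, and all 8 lay below the median gene. Over all genes 34% were lower and 16.1% were lower with bounds apart. None of the 8 was 2-fold lower as summed values, and Rspo2 alone was with RefSeq transcripts only. Pooling these roles was not among the planned results, so the counts only describe the values. The Wnt, Frizzled and LRP genes, left out of the pool, had median ratios of 0.10, 0.07 and 0.01. Some genes of the pooled roles stayed below 1 FPKM in both libraries. Of these, Lgr6 and Dkk2 were listed higher in the knockout library, and Rspo3, Lgr5, Sfrp5 and Dkk1 lower, all with overlapping bounds. Among 9 other secreted inhibitors and Kremen receptors, outside the set, 6 were compared. Of these, 4 had a ratio above 0 (66% over all genes), and their median ratio was 0.31. The germ cell markers summed to 853 and 801 FPKM, with 4 of 10 lower with bounds apart and 5 higher, and had a median ratio of 0.24. Those of undifferentiated spermatogonia summed to 312 and 341 FPKM, with 7 of 10 higher and 3 lower. The sums of all 5 somatic lists were higher in the knockout library. The part of cell composition in the differences of the 8 genes was not tested.

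Among the R-spondins, Rspo4 was at 10.8 FPKM (9.13 to 12.4) and 9.46 FPKM (8.04 to 10.9), with overlapping bounds. Rspo2 (chromosome 15, 43020795 to 43170818) was at 9.81 FPKM (7.47 to 12.2) and 5.48 FPKM (4.31 to 6.66), with bounds apart. Its RefSeq transcript alone was at 2.88 and 0.552 FPKM, the rest being assembled models with the same 3′ end and other starts. Rspo1, known for its part in ovarian development, was at 6.65 FPKM (4.84 to 8.49) and 4.28 FPKM (2.43 to 6.22), with overlapping bounds. Rspo3 stayed below 1 FPKM, at 0.139 and 0.0758. The summed R-spondin level was 27.4 and 19.3 FPKM, and the median ratio of the 3 genes compared was -0.54.

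Lgr4 was the main R-spondin receptor, at 5.29 FPKM (4.74 to 5.85) for the wild type and 4.01 FPKM (3.56 to 4.47) for the knockout, with bounds apart. It held 90.0% and 80.9% of the summed LGR level. Lgr5, a stem cell marker of other tissues, was at 0.246 and 0.190 FPKM, and Lgr6 at 0.340 and 0.754 FPKM with overlapping bounds.

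Sfrp2 was the most abundant of all 46 genes in the wild-type library, at 21.6 FPKM (18.7 to 23.2), above 69.4% of the genes compared. It was at 13.6 FPKM (11.7 to 14.7) in the knockout library, a ratio of -0.63, from 1 transcript without assembled models. Sfrp1, also from 1 transcript, was at 11.8 FPKM (10.8 to 12.7) and 8.74 FPKM (7.98 to 9.50). Both were lower in the knockout library with bounds apart, and their ratio did not depend on how models were joined. Sfrp4 was at 1.64 and 1.71 FPKM and Sfrp5 at 0.502 and 0.488 FPKM, with overlapping bounds. Dkk3, a divergent member of its family, was at 6.01 FPKM (4.89 to 7.14) and 3.56 FPKM (2.70 to 4.44), a ratio of -0.62 with bounds apart. Dkk1 and Dkk2, which act on LRP5 and LRP6, were below 1 FPKM in both libraries, and Dkk4 was listed at 0 in both.

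**Figure D5:**
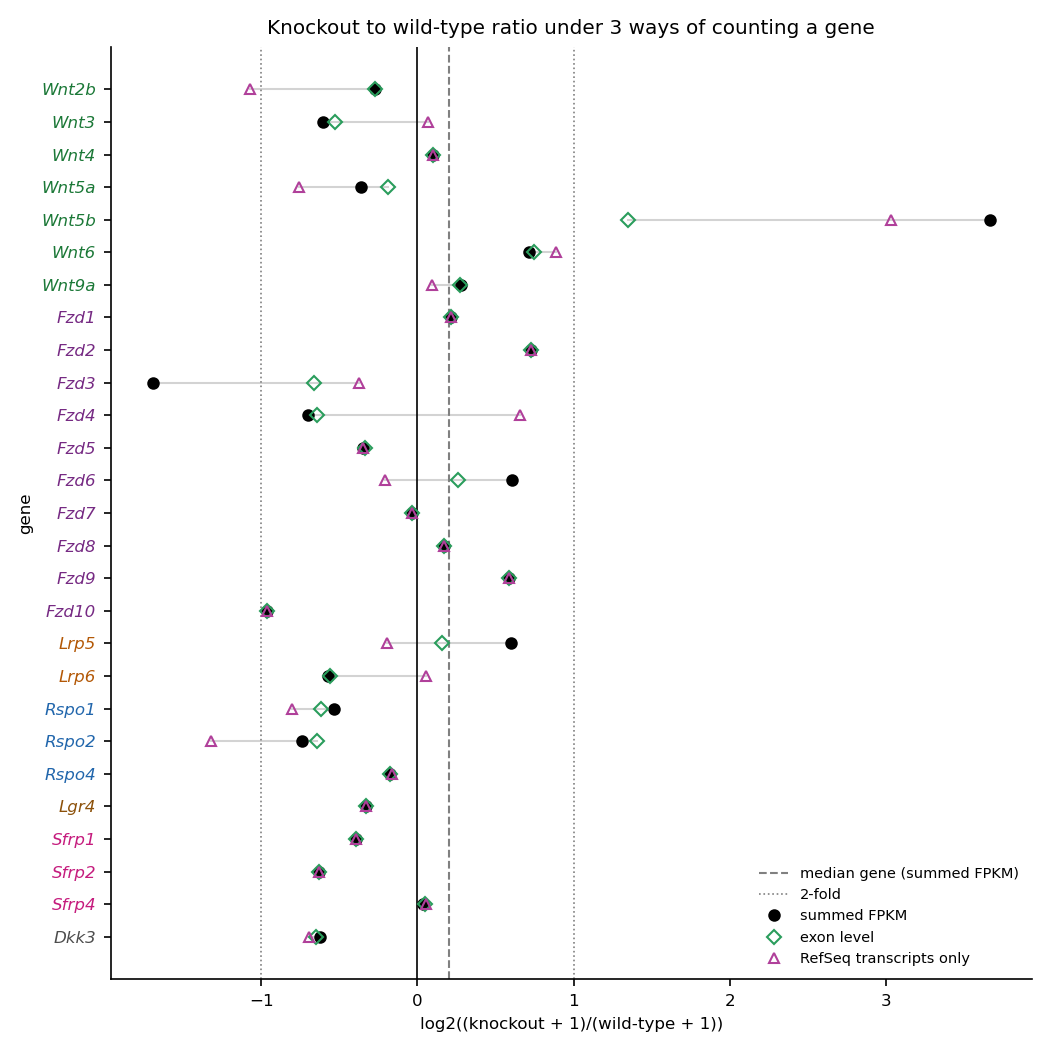
For each of the 27 members, the log2 ratio of knockout to wild-type is given from summed FPKM (filled circle), at the exon level (diamond) and with RefSeq transcripts only (triangle); the dashed line is the median gene, 0.21, and dotted lines mark 2-fold. The symbols coincide for genes without assembled models, such as Fzd2, Fzd10, Sfrp1 and Sfrp2, and lie on both sides of 0 for Wnt3, Fzd4, Fzd6, Lrp5 and Lrp6.

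How far a ratio can be read thus depended on the gene. For 11 of the 27 members no assembled model was joined in either library, for 9 a model was joined in 1 library only, and for 7 in both. Those with a model in 1 library only were Wnt3, Wnt5b, Wnt6, Wnt9a, Fzd3, Fzd4, Fzd6, Lrp5 and Lrp6. Over all genes compared the median ratio was 0.09 at the 5′ end and 0.23 at the 3′ end.

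Beyond the receptors, 49 of 56 further pathway genes were compared, and 2 were at least 2-fold higher and 1 at least 2-fold lower in the knockout library, with a median ratio of 0.12. Over all genes 7.68% were higher and 3.5% lower, and counts of 2 and 1 are too small to read as a difference from these shares. Btrc, a ubiquitin ligase subunit that recognises marked beta-catenin (9.35 and 26.6 FPKM), and Gsk3b, a kinase of the destruction complex (15.1 and 32.3 FPKM), were the higher ones. At the exon level their ratios were 0.07 and -0.07, so both calls rested on assembled models. Apc, the scaffold of the destruction complex, was at 34.5 FPKM (32.2 to 36.8) and 13.3 FPKM (12.2 to 14.4), a ratio of -1.31, and -1.27 at the exon level, but 0.58 with RefSeq transcripts only.

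Ctnnb1, which encodes beta-catenin, was the most abundant pathway gene, at 165 FPKM (158 to 173) and 129 FPKM (123 to 135), lower in the knockout library with bounds apart. Among its nuclear partners Tcf7 led, at 74.6 and 86.4 FPKM with overlapping bounds, and Lef1 was at 4.27 FPKM (2.92 to 5.69) and 1.82 FPKM (1.21 to 2.49), a ratio of -0.90. With RefSeq transcripts only, Tcf7 was at 54.1 and 0 FPKM and Lef1 at 0 in both libraries. The Lef1 difference thus lay in assembled models. At the exon level the ratio was 0.36 for Tcf7 and -0.83 for Lef1. Of the 11 target and feedback genes compared none was 2-fold different, 6 had ratios below 0, and the 4 with bounds apart, Axin2, Lef1, Znrf3 and Ccnd1, were all lower. Among all genes 11.2% were 2-fold different, 35.5% were higher with bounds apart and 16.1% lower with bounds apart. Axin2, the most widely used readout of beta-catenin activity, was at 6.22 FPKM (5.21 to 7.21) and 4.41 FPKM (3.90 to 4.93). Its ratio was -0.42 as a summed value, -0.33 at the exon level and 0.73 with RefSeq transcripts only. Znrf3, the ligase that R-spondins act on, was at 6.44 and 4.24 FPKM, and Ccnd1 at 25.5 and 21.6 FPKM. The Dishevelled genes, which relay the signal inside the cell, were at 23.8 and 25.2 FPKM for Dvl1, 45.1 and 50.1 FPKM for Dvl2, and 13.7 and 18.0 FPKM for Dvl3, the last with bounds apart. Csnk1a1, a kinase of the destruction complex, was at 112 and 91.6 FPKM and lower in the knockout library with bounds apart. Ptk7, a receptor of planar cell polarity, was at 46.2 and 52.2 FPKM and higher with bounds apart, as was Kremen1, a receptor for DKK proteins, at 6.36 and 8.04 FPKM. Of the genes for ligand release, Porcn, the enzyme that attaches the lipid, was at 5.39 FPKM (3.40 to 7.63) and 10.8 FPKM (7.62 to 14.0), with bounds that just overlapped, and Wls, the carrier of Wnt proteins, at 11.6 and 11.1 FPKM.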

How the data were processed

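Poly(A) RNA of 1 wild-type and 1 Dnmt3l knockout library was sequenced as paired 100 nt reads, grouped by the genotype label. CASAVA 1.9, TopHat2 2.0.8, Cufflinks 2.1.1 and mm10 are named per the submitters' processing notes, without settings. FPKM values and their bounds were used as the authors deposited them, per transcript. No read counts were used here and the depth is unknown. The protocol names no strand-marking step, so sense and antisense reads cannot be told apart. The score column was not used.

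RefSeq identifiers were named by RefSeq accession (29451 of 30079), the GENCODE M21 RefSeq table (177) or exon overlap (438), and 13 stayed unnamed. Each assembled model at least 300 nt long was given to the same-strand gene with the most exon bases in common, and those without strand only with a share of 0.5 or more. Values and bounds were summed per gene. Genes of 1 FPKM or more in at least 1 library were compared with a pseudocount of 1. All members are accounted for, and pathway genes were named where 2-fold different or leading their role. Porcn, Axin2, Lef1, Tcf7, Dvl1 and Dvl3 were added after their values were seen. The members and lists were chosen with earlier results of these data known. The computation (Python 3.11.15, pandas 2.3.3, bedtools 2.31.1) was tested on simulated data. Promoter sequences are RefSeq's (GRCm38.p6). Alternatives are given in the closing section.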

Additional observations from a re-analysis of the deposited data

How the results depend on the processing

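No paired analysis was possible because there was 1 library per genotype, and no library could be left out. For the same reason the causes below were not tested unless stated. As summed values 1 member was 2-fold higher, 1 was 2-fold lower and the median ratio was -0.27. The higher count was 6 at 1.5-fold and 0 among genes above 0 in both libraries (added after seeing the data), and was the same under every other alternative. The lower count was 3 with a pseudocount of 0.1 (Fzd3, Fzd4 and Fzd10), 2 centred on the median gene, 2 with upper-quartile scaling, 2 with length-bin medians removed (each Fzd3 and Fzd10), 2 with RefSeq transcripts only or the most abundant one (Wnt2b and Rspo2), 0 at the exon level, 7 at 1.5-fold and 0 at 4-fold. The median ratio of the members was -0.35 with a pseudocount of 0.1 and -0.13 with 5, -0.02 without a filter, -0.17 with a filter of 10 FPKM, -0.47 centred, -0.43 with upper-quartile scaling, -0.20 with RefSeq transcripts only, -0.06 with the most abundant one, -0.19 at the exon level, -0.29 with length-bin medians removed and -0.30 among genes above 0 in both libraries. It was below 0 in each.

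For the pathway genes (2 higher, 1 lower, median 0.12) the higher count was 1 with a pseudocount of 5, centred or upper-quartile scaled, 3 with RefSeq transcripts only, 0 at the exon level, 4 at 1.5-fold and 0 at 4-fold. The lower count was 2 with a pseudocount of 0.1, centred, upper-quartile scaled or with length-bin medians removed, 7 with RefSeq transcripts only, 6 with the most abundant one, 2 at 1.5-fold and 0 at 4-fold. The median was 0.15 and 0.08 with pseudocounts of 0.1 and 5, 0.10 without a filter, 0.11 with a filter of 10 FPKM, -0.08 centred, -0.07 upper-quartile scaled, 0.08 with RefSeq transcripts only and with the most abundant one, 0.01 at the exon level and -0.02 with length-bin medians removed, so its sign depended on the scaling.

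Of the 27 members, 19 kept their direction under every alternative run on them, 6 higher and 13 lower. The latter included Rspo1, Rspo2, Rspo4, Lgr4, Sfrp1, Sfrp2, Dkk3, Fzd3, Fzd10 and Fzd4, although the last was below the filter of the RefSeq-only setting. Many of these settings could not have changed a direction. Pseudocounts and filters never can, and centring and upper-quartile scaling only lower a ratio. For genes with 1 RefSeq transcript and no assembled model, such as Fzd2, Fzd10, Sfrp1, Sfrp2 and Lgr4, the ways of counting transcripts return the same value. Wnt5b ranged from 1.34 to 6.88. Among all genes, centring changed the 2-fold calls from 1060 higher and 483 lower to 675 and 748.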
